A study of Mus musculus with 6 samples.

Results

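Rapgef3, which encodes the exchange factor Epac1, and the genes of the Rap switch around it were followed in pre-B cells sorted from Mef2c-deficient and control bone marrow. The set holds 10 genes: the exchange factor genes Rapgef1 to Rapgef6 and Rasgrp2, and the GTPase genes Rap1a, Rap1b and Rap2b. It was chosen by the difference of its lead gene Rapgef3 between the groups on these same arrays, with that result already known, so the differences of the members are given as a description and with no test. Of the 10, 8 were measured, each by 1 probe set annotated with a single symbol, while Rapgef2 and Rapgef4 were not analysed here. All 8 probe sets passed a filter on low values (mean log2 above 7.26) and stand among the 11271 genes that were tested in all.

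Both groups hold 3 arrays of mice aged 9 months. In the Mef2c-deficient group, Vav-Cre, which is active in blood-forming cells, had removed Mef2c from Mef2cfl/fl mice, so the deletion is not limited to B cells. Per the methods, controls were Mef2cfl/fl, Mef2cfl/+ or Vav-Cre Mef2cfl/+ mice of matching age, and nothing used here says which genotype each control array had. The cells were gated as B220+IgM-CD43-, and their RNA was read on Affymetrix mouse expression arrays.

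Rap GTPases are small switches that are on while they hold GTP. Exchange factors load them with GTP and GTPase-activating proteins switch them off, and in lymphocytes active Rap1 raises the adhesiveness of integrins, including those that hold B-cell progenitors to bone marrow stroma. The exchange factors differ in what turns them on. Epac1 opens when it binds cyclic AMP, which gives that second messenger a route beside protein kinase A. The Rapgef1 product is brought to receptors by Crk adaptors, and CalDAG-GEFI, the Rasgrp2 product, responds to calcium and diacylglycerol and is best known from platelets.

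The promoters of 9 of the 10 members were found in a RefSeq table of the mouse build GRCm38.p6, with 12 annotated starts between them, and Rap1a was not matched. Each window runs from 250 bases before an annotated start to 50 bases after it, and position -1 is the last base before the start. The windows of 3 genes are shown because they belong to the lead gene or hold a motif of interest, and capitals mark the motif. The first is Rapgef3, on the minus strand at chr15:97767617-97767916, where capitals mark TGACG, the short form of the cyclic AMP response element, starting at position -191. The next is the downstream start of Rasgrp2, on the plus strand at chr19:6401455-6401754. Capitals there mark a match to CTANNNNTA, read from the minus strand and starting at position -119. CTANNNNTA is a loose form of the MEF2 core that allows any base at its 4 middle positions. This match is the only one among the 12 windows. The last is Rap1b, on the minus strand at chr10:117845925-117846224, where capitals mark the full cyclic AMP response element TGACGTCA starting at position -42.
Rapgef3: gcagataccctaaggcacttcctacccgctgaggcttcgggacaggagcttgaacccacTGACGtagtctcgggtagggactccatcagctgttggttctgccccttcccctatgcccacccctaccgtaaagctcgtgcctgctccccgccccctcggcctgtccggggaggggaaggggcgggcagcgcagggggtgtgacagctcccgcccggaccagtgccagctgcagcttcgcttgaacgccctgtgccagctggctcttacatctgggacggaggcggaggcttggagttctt
Rasgrp2: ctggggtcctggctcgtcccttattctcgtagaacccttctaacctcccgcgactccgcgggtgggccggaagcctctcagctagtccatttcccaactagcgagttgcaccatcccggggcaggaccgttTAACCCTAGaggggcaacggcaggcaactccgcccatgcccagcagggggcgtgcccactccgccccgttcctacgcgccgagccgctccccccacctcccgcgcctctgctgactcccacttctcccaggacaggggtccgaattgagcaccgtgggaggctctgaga
Rap1b: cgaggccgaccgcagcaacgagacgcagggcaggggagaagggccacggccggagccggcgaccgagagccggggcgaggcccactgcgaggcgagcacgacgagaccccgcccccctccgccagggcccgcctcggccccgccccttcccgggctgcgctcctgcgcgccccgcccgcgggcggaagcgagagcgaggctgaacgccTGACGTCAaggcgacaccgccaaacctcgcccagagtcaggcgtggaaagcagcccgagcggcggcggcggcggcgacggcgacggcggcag
The loose MEF2 core CTANNNNTA, searched on both strands, was in 1 of the 12 member windows (Rasgrp2) and in 21.0% of 32851 promoters of mouse genes. With only A or T allowed at the 4 middle bases, a form added after the first search, 0 of the 12 windows and 3.60% of all promoters held it. TGACGTCA was in the window of Rap1b and in 1.79% of all promoters, and TGACG, which lies within it, was in those of Rap1b, Rapgef6 and Rapgef3 and in 20.8% of all. The 3 windows were rich in G and C, at 65% for Rapgef3, 66% for Rasgrp2 and 78% for Rap1b, against a median of 52.7% over all promoters. These matches describe reference sequence near a start and say nothing of binding in these cells.

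Some properties of the arrays bear on all values that follow. All levels are log2 of the deposited intensities, and levels of different probe sets are not set against each other. The deposited values reach 2144602, above the range of the scanner, so the base on which they left the log scale is not settled: if it was e, log2 differences shrink by a factor of 0.693. Over all genes tested, the difference Mef2c-deficient minus control had a median of -0.36 on the deposited scale and of -0.10 to 0.10 under 4 other scalings, and values relative to -0.36 are given beside the plain ones. Of the genes tested, 0.0177% passed an adjusted p of 0.05 in limma, which was 2 genes: Slc1a5, named after its value was seen, and Rapgef3, for which this is no test, since the set was chosen on it. That count was 0 without any single control array, 1, 12 and 159 without Mef2c-deficient replicates 2, 1 and 3 in that order, and 0 with the replicate number entered as a block. Before adjustment, p was under 0.05 for 20.9% as lower and for 5.32% as higher in Mef2c-deficient cells, and the groups did not overlap in 27.1% as lower and in 10.6% as higher. The animals behind the samples are not named, so these p-values measure the spread between 3 samples of each kind. Mef2c itself was not analysed here.

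Mef2c-deficient replicate 3 stood apart in markers of other cells. Relative to the control mean, the median of 8 neutrophil markers was -0.02, -1.11 and 4.70 in Mef2c-deficient replicates 1 to 3 and -1.20 to 1.09 in the control arrays. Medians in Mef2c-deficient replicate 3 were also the highest of the 6 arrays for 7 monocyte and macrophage and 10 plasmacytoid dendritic cell markers. The monocyte and macrophage medians were 0.21, 1.14 and 2.88 in Mef2c-deficient replicates 1 to 3, all above the control arrays at -0.31 to 0.14. The plasmacytoid dendritic cell medians were 0.51, 0.52 and 3.16, against -0.47 to 0.70 in the control arrays. In Mef2c-deficient replicates 1 and 2, the plasmacytoid dendritic cell medians thus lay within the control range. Single monocyte and macrophage markers did not all follow their median. Mpeg1 was at 14.01, 16.19 and 18.32 in Mef2c-deficient and 12.50, 12.90 and 15.19 in control arrays. Lyz2, named after its values were seen, was at 11.29, 10.20 and 17.11 against 12.15, 12.03 and 14.24. The source of these signals was not tested. The 11 measured B-lineage and pre-B markers had medians of -0.51, -0.87 and -1.10 in the Mef2c-deficient arrays and -0.08 to 0.10 in the control arrays. The median of all genes tested, -0.36, was not taken off any of these marker medians. Cd79b, a signalling chain of the B-cell receptor, was at 18.20 to 19.06 in Mef2c-deficient and 18.76 to 19.22 in control cells. Cd24a was at 18.12 to 18.74 against 18.89 to 19.04. Single markers differed in direction: Cd79a, named after its values were seen, was at 18.92, 18.74 and 18.40 in Mef2c-deficient and 18.34, 17.80 and 18.96 in control arrays. All 11 of these B-lineage markers passed the filter on low values, as did markers of each of the 8 other cell types read. In sorted bulk samples, fewer cells of a type and less RNA per cell cannot be told apart.

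**Figure D1:**
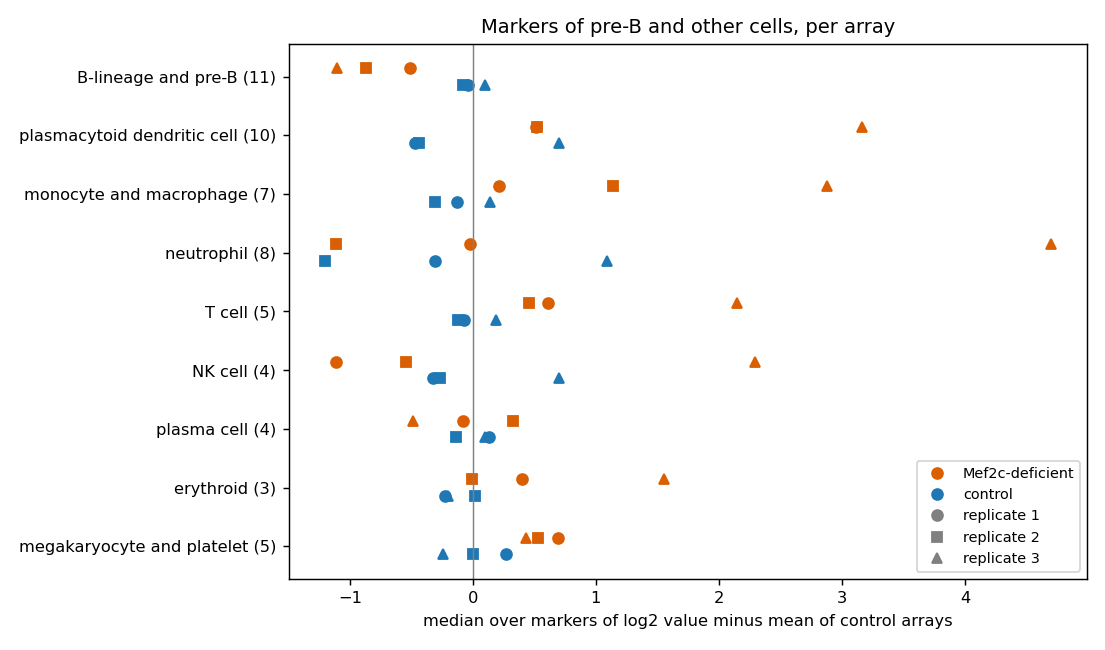
Marker levels of 9 cell types in 3 Mef2c-deficient (orange) and 3 control arrays (blue), as log2 units above or below the control mean (horizontal axis, median over the number of markers given in parentheses), with a symbol for each replicate number. Mef2c-deficient replicate 3 lay at 4.70 for neutrophil, 3.16 for plasmacytoid dendritic cell and 2.88 for monocyte and macrophage markers, and the B-lineage medians were -1.10 to -0.51 in Mef2c-deficient and -0.08 to 0.10 in control arrays.

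Rapgef3 had by far the greatest difference of the 8 members. Its log2 values were 9.93, 9.77 and 10.45 in Mef2c-deficient pre-B cells, against 13.45, 13.94 and 13.60 in control cells. On the linear scale these are deposited intensities of 976, 876 and 1396 in Mef2c-deficient and 11186, 15696 and 12411 in control cells. Every Mef2c-deficient array lay below every control array, and the gap between the groups was wider than the spread within either, whose ranges were 0.673 in Mef2c-deficient and 0.489 in control cells. The means were 10.05 ± 0.35 and 13.66 ± 0.25 (SD, n = 3 each), which differ by -3.61 (SE 0.31) on the log2 scale, or by -3.25 once the median of all genes is taken off. This is a 12.2-fold lower value as deposited, or 5.67-fold lower if the scale is of base e.

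Ordered by log2 difference, Rapgef3 ranked 5 from the lowest of the 11271 genes tested, where Rapgef1, the member with the next lowest rank among the exchange factors, ranked 4868. Mef2c-deficient replicate 3, the array with the most signal from markers of other cells, had the highest Rapgef3 value of its group. Without it the difference was -3.81, and leaving out any other single array gave -3.72 to -3.47. It was -3.25 when the log2 values were quantile normalized again, -3.09 after cyclic loess, -3.32 with each array centred on its kept probe sets and -3.15 with centring on the genes tested. The probe set carries the suffix _a_at, which the manufacturer uses for probes shared by several transcripts of a gene, so splice forms were not separated.

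**Figure D2:**
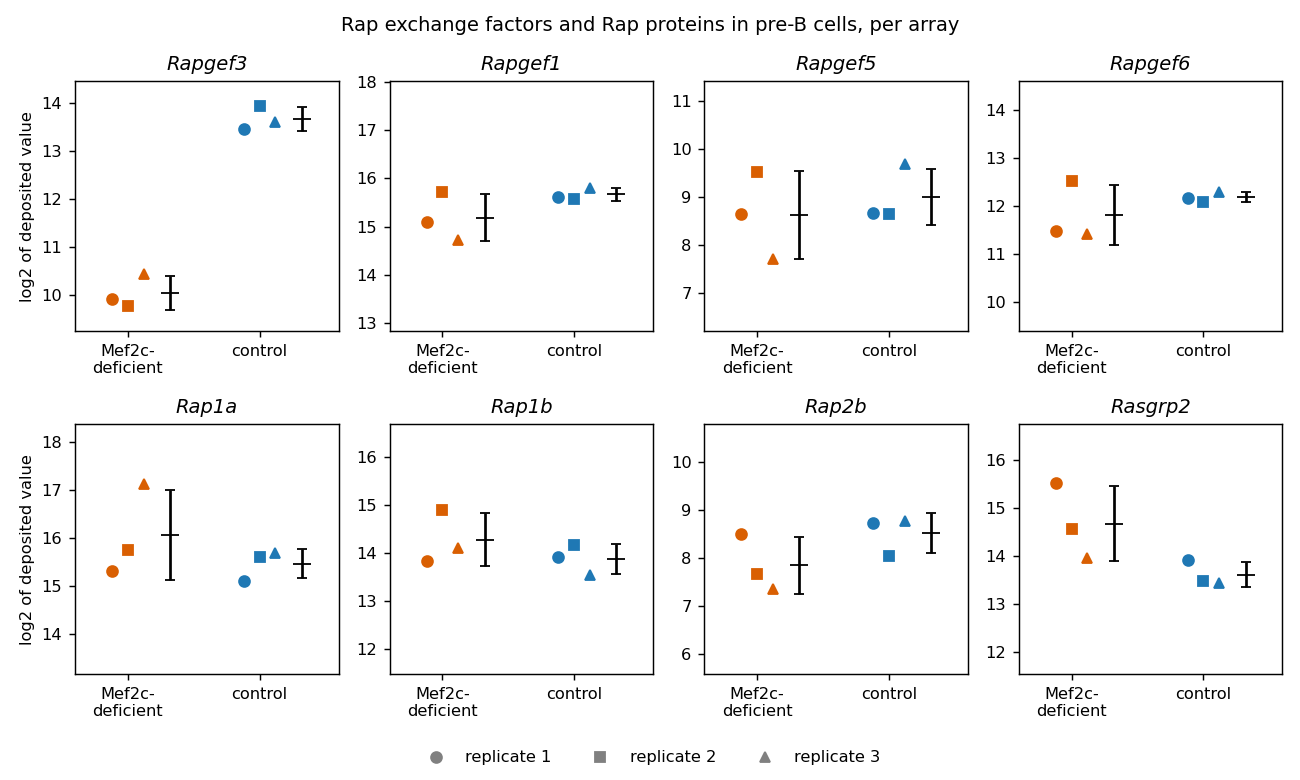
Log2 of the deposited intensity (vertical axes, each spanning the same number of log2 units) of the 8 measured members in 3 Mef2c-deficient (orange) and 3 control arrays (blue), with a symbol for each replicate number and the mean ± SD in black. Rapgef3 is at 9.77 to 10.45 in Mef2c-deficient and 13.45 to 13.94 in control arrays, and apart from Rasgrp2 the groups of the other members overlap.

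The other measured Rapgef genes differed little from the bulk of genes. Rapgef1, whose product is recruited by Crk adaptors, had log2 values of 15.09, 15.71 and 14.73 in Mef2c-deficient cells, against 15.62, 15.57 and 15.81 in control cells. Mef2c-deficient replicate 2 lay within the range of the control arrays and the others below it, so the groups overlapped. The means were 15.18 ± 0.49 and 15.67 ± 0.13 (SD, n = 3 each), and differed by -0.49 (SE 0.33), or -0.13 relative to all genes. Without Mef2c-deficient replicate 2 it was -0.76, and without replicate 3 it was -0.27. Among the other scalings it lay between -0.27 and -0.03.

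Rapgef6 encodes a PDZ domain exchange factor for Rap1 and Rap2. Its log2 values were 11.48, 12.53 and 11.43 in Mef2c-deficient cells, against 12.17, 12.09 and 12.30 in control cells. Here too Mef2c-deficient replicate 2 was the high array, above all control arrays, while the others were below them. The log2 difference of -0.37 (SE 0.37) was -0.02 relative to all genes, -0.73 without Mef2c-deficient replicate 2, and 0.12 after quantile normalization, 0.16 after cyclic loess and 0.09 with centring on the genes tested, so no direction can be given. Its probe set has the suffix _s_at, used for probes that can also match other genes.

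Rapgef5, which encodes an exchange factor for Rap and related GTPases, was the most variable of the 4. Its log2 values were 8.64, 9.52 and 7.71 in Mef2c-deficient cells, against 8.67, 8.65 and 9.68 in control cells. The spread covered 1.81 units in Mef2c-deficient and 1.04 units in control cells, and the groups overlapped. The log2 difference was -0.37 (SE 0.52), or -0.02 relative to all genes, and it was -0.82 without Mef2c-deficient replicate 2, 0.08 without replicate 3 and -0.03 without control replicate 3. It was 0.09 with centring on the genes tested, so that no direction can be given here either.

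Rapgef1, Rapgef5 and Rapgef6 varied alike from array to array. In all 3 genes Mef2c-deficient replicate 2 was the highest array of its group and replicate 3 the lowest, and control replicate 3 was the highest control array. Deviations from the group means correlated over the 6 arrays at Pearson's r of 0.93 between Rapgef1 and Rapgef5, 0.94 between Rapgef1 and Rapgef6 and 0.81 between Rapgef5 and Rapgef6. Rapgef3 ran against them, at -0.77, -0.73 and -0.62. The 6 points share arrays and scaling, and 28 such pairs of members were computed.

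The Rap1 genes themselves, the substrates of these exchange factors, did not share the low values of Rapgef3. Rap1a had log2 values of 15.31, 15.76 and 17.12 in Mef2c-deficient cells, against 15.11, 15.61 and 15.69 in control cells. Mef2c-deficient replicate 3 was the highest array by more than the whole range of the control arrays, and replicate 1 lay within it. The log2 difference was 0.59 (SE 0.49), or 0.95 relative to all genes, and 0.06 without Mef2c-deficient replicate 3, whose neutrophil, monocyte and plasmacytoid dendritic cell markers were the highest of the 6 arrays. Their part in the Rap1a value was not tested.

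Rap1b, the closest relative of Rap1a, had log2 values of 13.83, 14.89 and 14.10 in Mef2c-deficient cells, against 13.92, 14.18 and 13.55 in control cells. The groups overlapped, and Mef2c-deficient replicate 2 was the highest array. The log2 difference was 0.39 (SE 0.37), or 0.75 relative to all genes, and 0.09 without Mef2c-deficient replicate 2. Other scalings gave 0.69 to 0.91 for Rap1b and 0.80 to 1.05 for Rap1a.

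Rap2b encodes a Rap2 GTPase, whose effectors differ in part from those of Rap1. Its log2 values were 8.51, 7.68 and 7.36 in Mef2c-deficient cells, against 8.73, 8.05 and 8.78 in control cells. Mef2c-deficient replicate 1 lay within the control range and the others below it. The log2 difference was -0.67 (SE 0.40), or -0.31 relative to all genes, -1.0 without Mef2c-deficient replicate 1 and -0.43 without replicate 3, and other scalings gave -0.83 to -0.21.

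Of the 3 members with higher means in Mef2c-deficient cells, Rasgrp2 had the greatest difference. Its log2 values were 15.51, 14.56 and 13.95 in Mef2c-deficient pre-B cells, against 13.91, 13.48 and 13.44 in control cells. The groups did not overlap, but the lowest Mef2c-deficient and the highest control array were only a few hundredths of a unit apart. The means were 14.67 ± 0.78 and 13.61 ± 0.26 (SD, n = 3 each), and differed by 1.06 (SE 0.43), or 1.42 relative to all genes. The value was 2.09-fold higher as deposited and 1.67-fold higher on base e. Without Mef2c-deficient replicate 1 the difference was 0.65, without replicate 3 it was 1.42, and other scalings gave 1.36 to 1.58.

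Since CalDAG-GEFI is abundant in platelets, markers of that lineage were read beside Rasgrp2. The median of 5 megakaryocyte and platelet markers relative to the control mean was 0.69, 0.53 and 0.43 in the Mef2c-deficient arrays and -0.24 to 0.27 in the control arrays, so the medians of the groups did not overlap. The single markers did not all follow it: Gp9 was at 10.32, 10.50 and 8.97 in Mef2c-deficient and 9.46, 9.69 and 9.32 in control arrays, with Mef2c-deficient replicate 3 the lowest of the 6. The summed intensity of the 5 was 1440 to 2368 in Mef2c-deficient and 1180 to 1592 in control cells. Of the 5, Pf4, Ppbp and Gp1bb lay below the filter on low values, while Gp9 and Itga2b passed it. Gp1bb, named after its values were seen, was at 4.60, 5.60 and 6.25 in Mef2c-deficient and 6.48, 5.82 and 5.18 in control arrays. Gp9, Itga2b, Ppbp and Pf4 had higher means in Mef2c-deficient than in control arrays, with groups that overlapped. Itga2b was at 9.78, 9.62 and 9.34 against 9.05, 9.37 and 8.85. Ppbp was at 5.06, 4.45 and 5.65 against 4.48, 3.99 and 4.16, and Pf4 at 5.56, 5.90 and 7.37 against 5.90, 5.04 and 4.61. The part of these markers in the Rasgrp2 value was not tested. The Rasgrp2 probe set has the suffix _x_at, used for probes that can cross-hybridise with other transcripts, so the value may not be that of Rasgrp2 alone.

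Of the 8 measured members, 5 had lower and 3 higher means in Mef2c-deficient cells, and the median difference was -0.37, against -0.36 over all genes. Without adjustment, 1 member was lower (Rapgef3) and 1 higher (Rasgrp2) at p under 0.05, where 20.9% and 5.32% of all genes were. The same genes were those whose groups did not overlap, where 27.1% and 10.6% of all genes did not. As the members were picked with this contrast in view, nothing is read from these counts. Leaving out Mef2c-deficient replicate 2 brought the count of lower members to 3, with Rapgef1 and Rapgef6 added, and leaving out replicate 1 brought it to 2, with Rap2b added. Rasgrp2 no longer counted as higher without Mef2c-deficient replicate 1 or 2, without any single control array or with the methods' t-test, and it is absent without cross-hybridising probe sets, while Rap1b was added after cyclic loess.

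**Figure D3:**
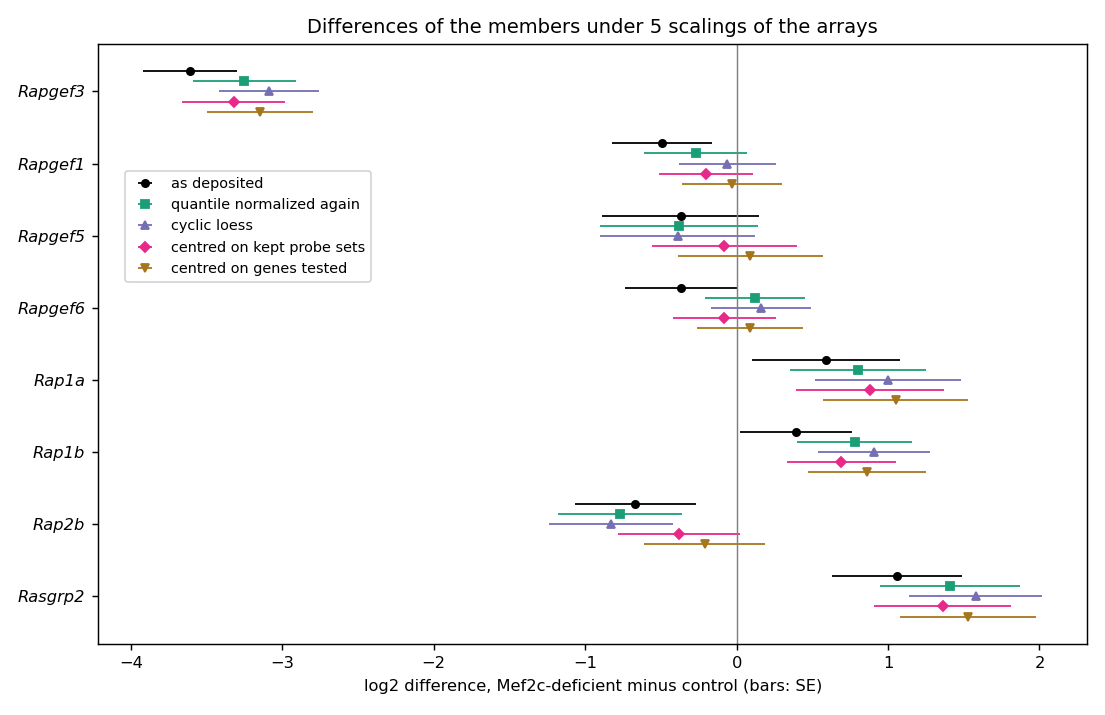
Log2 difference, Mef2c-deficient minus control (horizontal axis), of the 8 measured members on the deposited scale (black circles) and under 4 other scalings of the arrays, with bars of 1 SE. Rapgef3 stays between -3.61 and -3.09 and Rasgrp2 between 1.06 and 1.58, while Rapgef5 and Rapgef6 lie on either side of 0.

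Genes whose levels ran most like Rapgef3 over the 6 arrays were ranked by Pearson's r of the log2 values. The 5 at the top were Dlat, for the acetyltransferase subunit of pyruvate dehydrogenase (r = 0.999), C2cd5 (0.996), Mcm7, for a subunit of the replicative helicase (0.994), Pask, for a PAS domain kinase (0.994), and Bccip, for a protein that binds BRCA2 (0.993). Dlat had log2 values of 10.99, 10.91 and 11.11 in Mef2c-deficient cells, against 11.98, 12.18 and 12.10 in control cells. Mcm7, whose probe set has the suffix _x_at, had 14.38, 14.09 and 14.68 in Mef2c-deficient cells, against 15.92, 16.32 and 16.09 in control cells. Both repeat the order of the Rapgef3 arrays within each group, with replicate 3 the highest Mef2c-deficient and replicate 2 the highest control array, at a smaller difference between groups of -1.08 for Dlat and -1.73 for Mcm7. Over these 6 arrays, which share group and scaling, 643 of 11271 genes had an r above 0.9 with Rapgef3 and 10 above 0.99. Of the other members, Rapgef1 (0.555) and Rap2b (0.549) had the highest r with Rapgef3 and Rasgrp2 the lowest, at -0.794.

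The wider pathway was read from 6 lists of 79 genes, of which 71 were in the table and 59 passed the filter. With limma, 0 of the 59 had an adjusted p under 0.05, while 7 were lower and 10 were higher at p under 0.05 without adjustment, where 20.9% and 5.32% of all genes were, and the methods' t-test gave 0 after adjustment and 5 lower and 6 higher without it. The median difference was 0.15, against -0.36 over all genes, with 25 lower and 34 higher means, where 7026 of all 11271 genes had lower and 4245 higher means. These lists were tested gene by gene only, and no test of a list as a whole was made. The counts shifted with scaling, to 2 lower and 22 higher with centring on the genes tested, and with single arrays, to 4 higher without control replicate 1, 6 without control replicate 2, and 5 higher and 3 lower without control replicate 3. Of the 13 pathway genes named below at that threshold, 3 (Gab1, Gab2 and Skap1) stayed under it in every setting that tested them. Gab1, Skap1 and Afdn passed the filter of 7.26 through the group with higher values. Their means in the other group were 6.87 for Gab1 (Mef2c-deficient), 7.26 for Skap1 and 7.08 for Afdn (both control). A stricter filter left these 3 genes out, and Gnai3 and Adcy5 as well. Of the pathway genes named below, Rap2c, Gnai3, Adcy5, Prkar1b, Rassf5 and Bcar1 had _s_at or _x_at probe sets, so their values may not be of those genes alone. Other genes of the 59 had such probe sets too, and 49 were left without them.

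Adaptor genes of the Crk pathway, which carry the Rapgef1 product to activated receptors, held 3 of the 7 genes lower at an unadjusted p under 0.05 (20.9% of all genes were). Gab2, for a scaffold protein phosphorylated below cytokine and antigen receptors, had log2 values of 8.47, 9.47 and 10.55 in Mef2c-deficient cells, against 11.39, 11.58 and 12.31 in control cells. Gab1, for a related scaffold that can recruit Crk proteins, had 6.69, 7.31 and 6.62 in Mef2c-deficient cells, against 9.08, 8.16 and 8.20 in control cells. Crkl, for an adaptor that binds the Rapgef1 product, had 12.98, 13.13 and 13.81 in Mef2c-deficient cells, against 14.29, 14.09 and 15.07 in control cells. The groups did not overlap in any of the 3, as in 27.1% of all genes. The log2 differences were -2.26 (SE 0.54; limma adjusted p = 0.0997) for Gab2, -1.60 (SE 0.37; limma adjusted p = 0.0956) for Gab1 and -1.18 (SE 0.38; limma adjusted p = 0.135) for Crkl. Crkl was at -0.65 after cyclic loess and -0.72 with centring on the genes tested, where its unadjusted call was lost, as it was without Mef2c-deficient replicate 1 (-1.01) or control replicate 3 (-0.88). Without Mef2c-deficient replicate 3 Gab2 differed by -2.79 and passed (limma adjusted p = 0.0453). The 7 measured genes of this list had a median difference of -0.65, and 0 were higher at an unadjusted p under 0.05, although 3 had higher means: Cblb at 0.93 (SE 0.52), Bcar1 at 0.54 (SE 0.29), with groups that did not overlap, and Cbl at 0.42 (SE 0.30), named after their values were seen.

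Effectors of Rap and parts of the integrin machinery had higher means in 13 of the 20 genes that passed the filter, and the same held for 4245 of all 11271 genes. Of the 20, 5 were higher and 1 was lower at an unadjusted p under 0.05, beside 5.32% and 20.9% of all genes, and the median difference was 0.27. Itgal, for the alpha chain of the integrin LFA-1, had log2 values of 10.69, 12.15 and 13.44 in Mef2c-deficient cells, against 9.86, 9.74 and 10.59 in control cells. Although the groups did not overlap, the Mef2c-deficient values were far apart, and the highest came from replicate 3, the array highest in myeloid markers. The log2 difference was 2.03 (SE 0.66; limma adjusted p = 0.136), and 1.36 without Mef2c-deficient replicate 3. Its unadjusted call was lost with the methods' t-test and without control replicate 2. LFA-1 is carried by most leukocytes, and the part of other cells in the Itgal value was not tested. Skap1, for an adaptor that couples antigen receptors to LFA-1, had log2 values of 8.67, 8.14 and 8.21 in Mef2c-deficient cells, against 7.57, 7.02 and 7.19 in control cells, a difference of 1.08 (SE 0.30; limma adjusted p = 0.115) that was 1.14 without Mef2c-deficient replicate 3. Afdn, for the Rap1-binding scaffold afadin, differed by 0.93 (SE 0.34; limma adjusted p = 0.155). This value was 0.73 after quantile normalization and 0.67 after cyclic loess, where its unadjusted call was lost. The call was also lost without Mef2c-deficient replicate 1 or control replicate 1. Some genes that tie Rap1 to integrins differed by less than their SE. They were Rassf5 (RAPL) at 0.18 (SE 0.28), Apbb1ip (RIAM) at 0.17 (SE 0.35) and the talin gene Tln1 at 0.11 (SE 0.30). Others of the list differed by more, among them Fyb at 2.64 (SE 0.97; limma adjusted p = 0.156) and Stk4 at -0.39 (SE 0.36), both with groups that overlapped. All of these were chosen for naming after their values were seen.

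Of the genes that set cyclic AMP, the ligand of Epac1, 12 passed the filter on low values. Of these 12, 1 was lower and 3 were higher at unadjusted p under 0.05 (20.9% and 5.32% of all genes), with a median difference of 0.25. Gnai3 encodes an inhibitory G protein that restrains adenylyl cyclases. Its log2 values were 6.88, 7.18 and 8.14 in Mef2c-deficient cells, against 8.52, 8.89 and 8.77 in control cells. Gnai3 lay below the filter on low values at 6.88 and 7.18, although its mean over all arrays passed it. Its difference of -1.33 (SE 0.38; limma adjusted p = 0.118) became -1.69 without Mef2c-deficient replicate 3 (limma adjusted p = 0.0473). With centring on the genes tested it was -0.86, where its unadjusted call was lost. Gnai2, for another inhibitory G protein and named after its values were seen, differed by 0.06 (SE 0.35), with groups that overlapped. The cyclase gene Adcy5 differed by 0.78 (SE 0.27; limma adjusted p = 0.145) and Pde4b, for a phosphodiesterase that breaks cyclic AMP down, by 0.96 (SE 0.38; limma adjusted p = 0.174). The unadjusted call was lost for Adcy5 without Mef2c-deficient replicate 2 or control replicate 1 or 3. For Pde4b it was lost with array weights, with the methods' t-test and without Mef2c-deficient replicate 2 or control replicate 2 or 3. The remaining higher gene, the cyclase gene Adcy7, differed by 1.01 (SE 0.42; limma adjusted p = 0.18) and was named after its values were seen. Protein kinase A, the other main receptor of cyclic AMP, and its target factors gave 1 lower and 1 higher of 7 genes at that threshold, beside the same 20.9% and 5.32%, with a median of -0.62. They were Creb1, for a factor that binds the cyclic AMP response element, at -0.97 (SE 0.40; limma adjusted p = 0.181) on the deposited scale but -0.67 to -0.47 under the 4 other scalings and -0.62 without Mef2c-deficient replicate 3, all without a call, and the regulatory subunit gene Prkar1b, at 1.12 (SE 0.37; limma adjusted p = 0.14). The unadjusted call of Prkar1b was lost without Mef2c-deficient replicate 1 or control replicate 2. Crem, a relative of Creb1, differed by -0.62 (SE 0.31).

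Among 6 further Rap GTPase and exchange factor genes 1 was lower and 0 were higher at an unadjusted p under 0.05, near the 20.9% of all genes, with a median difference of -0.66. The lower gene was Rap2c, at -0.69 (SE 0.28; limma adjusted p = 0.175), whose values were 13.65, 13.81 and 14.16 in Mef2c-deficient cells, against 14.50, 14.50 and 14.68 in control cells. Its difference was -0.39 to -0.18 under the 4 other scalings, where the unadjusted call was lost, as it was without any single control array, without Mef2c-deficient replicate 1 or 2 and with the replicate block. Rapgefl1, for a relative of the exchange factors, differed by -1.14 (SE 0.54), with Mef2c-deficient replicate 1 at the level of the controls, and Rasgrp4, known from mast cells and other myeloid cells, by 0.67 (SE 0.44). Of 7 genes for GTPase-activating proteins, which oppose the exchange factors, 1 was higher and 0 lower at that threshold (5.32% and 20.9% of all genes), with a median of 0.15. This was Sipa1l1, at 0.88 (SE 0.36; limma adjusted p = 0.175), with groups that overlapped. Its unadjusted call was lost with the methods' t-test, without Mef2c-deficient replicate 1 or 2 and without control replicate 1 or 3. Its relatives Sipa1l2 and Sipa1l3 differed by -1.19 (SE 0.53) and -0.79 (SE 0.37).

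**Figure D4:**
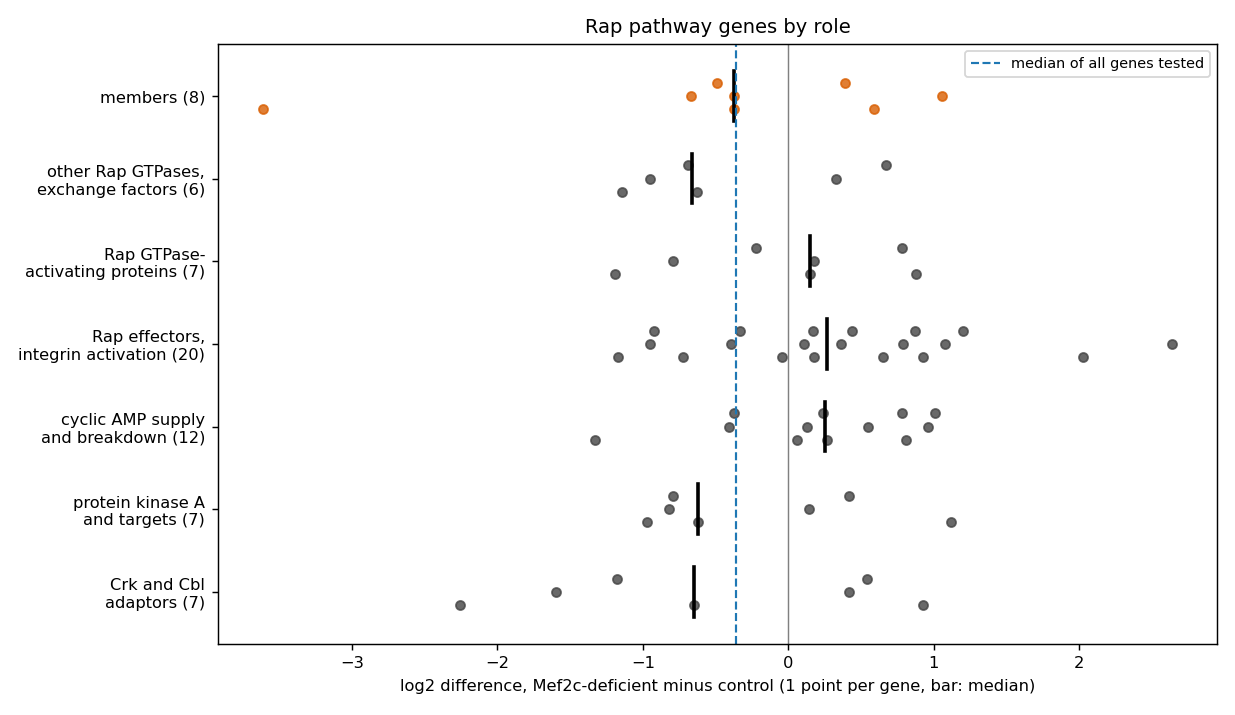
Log2 difference, Mef2c-deficient minus control (horizontal axis), of the measured members (orange) and of the tested genes of 6 Rap pathway lists (grey), with 1 point for each gene, a bar at each list's median and a dashed line at the median of all genes tested, -0.36. Rapgef3 at -3.61 lies apart from the other points, and the median is 0.27 for effectors and integrin genes and -0.65 for Crk and Cbl adaptors.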

How the data were processed

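Pre-B cell RNA of 3 Mef2c-deficient and 3 control samples was hybridised to Affymetrix arrays. The authors deposited 1 table of intensity values for 23913 probe sets, made by robust multiarray averaging (background adjustment, quantile normalization, summarisation); the sources used here give no tool versions. It holds no columns of comparisons made by the authors. The log2 of each value was taken without an offset. The platform annotation named the probe sets: 17690 had 1 symbol, 524 several and 5699 none, and 17539 were found in RefSeq by gene identifier. Those with several symbols or none and 25 AFFX controls were left out, as were probe sets at or below the 40th percentile of mean log2 (7.26). The brightest kept probe set represented a gene. The base of the deposited log scale is not settled.

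The group contrast was fitted in R 4.3.3 with limma 3.58.1 (lmFit, eBayes, two-sided, Benjamini-Hochberg over 11271 genes). The fit was also run on simulated data, and nothing is read from that run here. The members and lists were chosen with earlier results of these data known. Named genes were all members with a probe set, up to 3 genes per list by smallest unadjusted p, the 5 genes most like Rapgef3 and the brightest markers of a cell type; exceptions are stated. Same-numbered arrays of the groups deviated together (r = 0.348, 0.226 and 0.373 across genes, against -0.309 to 0.129 otherwise). The numbers may therefore pair samples, though the labels do not say what they stand for. The main fit and its SE and p-values treat the samples as unpaired, and a blocked fit on the replicate number was added as an alternative. Other filters, scalings, probe set rules, variance models, array weights, an offset of 16, the methods' t-test and leaving out each array were also run. Array medians were 236 to 285, and 3 arrays per group limit the precision.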

Additional observations from a re-analysis of the deposited data

How the results depend on the processing

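Rapgef3 kept its negative difference under every alternative run; as the set was chosen on it, its values are given with no test. They were -3.25 after quantile normalization, -3.09 after cyclic loess, -3.32 with centring on kept probe sets, -3.61 with the methods' t-test, -3.61 with the replicate number entered as a block, -3.15 with centring on the genes tested, an alternative chosen after seeing the data, and -3.81 to -3.47 without single arrays. Over all genes, the count past the adjusted threshold was 2 on the deposited scale, 0 under each of the 6 settings named before single arrays, 1154 with array weights and 0 to 159 without single arrays, the highest without Mef2c-deficient replicate 3. The count of lower members was 1 to 3 without single arrays and that of higher members 0 to 1. Pathway genes at an unadjusted p under 0.05 were 7 lower and 10 higher on the deposited scale, 4 lower and 17 higher after cyclic loess, 4 and 16 with centring on kept probe sets, 2 and 22 with centring on the genes tested, and 6 higher with the methods' t-test. Without single arrays they were 3 to 8 lower and 4 to 11 higher. With array weights Gab1, Gab2, Gnai3 and Itgal passed the adjusted threshold. The replicate block gave 8 lower and 11 higher pathway genes and, beside ending the calls of both Rapgef3 and Slc1a5, changed no call at the adjusted threshold. The cause of these shifts was not tested. No value gives the spread between animals beyond 3 samples a group, and the Rap2b probe set is dim, with Mef2c-deficient replicate 3 at a log2 value of 7.36 beside the filter at 7.26.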
